A study of Mus musculus with 2 samples.

Results

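Cerebellins are small secreted proteins of the C1q family that bridge the synaptic cleft. In the cerebellum they are released from the parallel fibres of granule cells, bind neurexins on the presynaptic side and delta glutamate receptors on the dendrites of the postsynaptic Purkinje cell, and hold the synapse together. Chromatin that is open to the enzyme DNase I is cut more often than packed chromatin, so DNase-seq maps promoters and other regulatory DNA as peaks of cutting. Short protected stretches inside such regions are called footprints and are left where a bound protein shields the DNA.

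The genes described here were the 4 cerebellin genes (Cbln1, Cbln2, Cbln3 and Cbln4), Grid1, which encodes the delta receptor GluD1, and Grid2ip, which encodes delphilin, a scaffold protein that binds a delta receptor at parallel fibre synapses. They were taken by name, 6 of the 21829 protein-coding genes of the GENCODE M21 annotation of mm10. Cbln1 and Cbln3 are known as granule cell genes, Cbln2 and Cbln4 are best known from other brain regions, and delphilin is known from Purkinje cells. Of the 2 receptor-side genes, Grid1 alone encodes a receptor subunit.

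The study held DNase-seq of cerebellum tissue from 2 male B6CASTF1/J mice aged 36 days, first-generation hybrids of a C57BL/6 and a CAST parent, with 1 library from each animal and no other group. No transgene, deletion or treatment was labelled. The 2 libraries have separate biosample entries and replicate numbers, though both list the same donor entry. With 2 animals and no control group no test between conditions was possible, so every value below is given for replicate 1 and replicate 2 and is a description.

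The deposited peak lists held 140127 peaks in replicate 1 and 114404 in replicate 2, and the footprint lists 342409 and 262603 footprints. Peak height is the authors' own signal per peak, and it is used here only to rank peaks within an animal, because the sources used here give neither the scaling between libraries nor the read depth. Of all peaks, 65.8% in replicate 1 and 80.4% in replicate 2 overlapped a peak of the other animal. A gene's territory is its body plus 10 kb on each side, and its promoter window reaches 1 kb to each side of every protein-coding start. A distal peak is one that touches no promoter window of any protein-coding gene. The tissue was taken whole, so fewer cells of a type and less open DNA per cell cannot be told apart. Among cell type markers, a promoter peak in both animals was present at 6 of 6 for granule cells, 4 of 6 for Purkinje cells, 3 of 4 for interneurons and 3 of 4 for astrocytes and Bergmann glia. It was present at 1 of 4 for oligodendrocytes, 0 of 4 for microglia and 1 of 3 for endothelium, where the share over all protein-coding genes was 62.9%. Of the Purkinje cell markers, Pcp2 and Ppp1r17 lacked a promoter peak in both animals, and the other 4 had one in both, the highest being that of Itpr1 with 16.0 in replicate 1 and 12.5 in replicate 2. The part of cell makeup in the results below was not tested.

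Open promoters were found at 3 of the 4 cerebellin genes, and their heights were far apart. Over all 6 genes a promoter peak was present at 5 in replicate 1 and at 4 in replicate 2, and at 4 in both. Over all protein-coding genes the share was 67.0% in replicate 1, 63.5% in replicate 2 and 62.9% in both, so the count of 4 of 6 was close to the background. When only peaks above the median height of their own list were counted, 2 genes, Cbln1 and Cbln3, kept a promoter peak in both animals. The share over all genes at this threshold was not counted, so whether 2 of 6 is low cannot be said. A footprint lay in the promoter window of 5 of the 6 genes in replicate 1 and of 3 in replicate 2, where the shares of all genes were 65.4% and 60.7%.

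**Figure D1:**
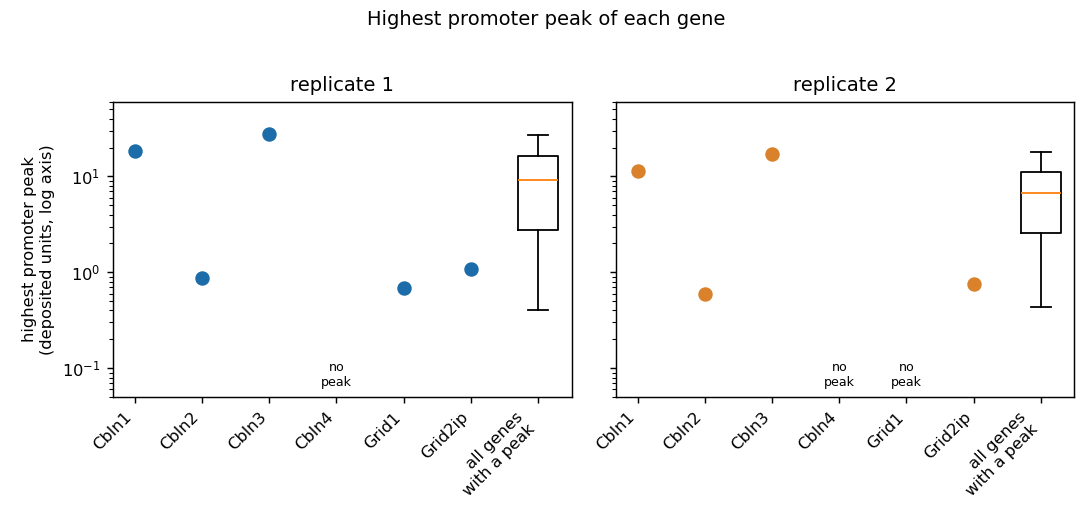
Highest promoter peak of each of the 6 genes (points) in replicate 1 (left) and replicate 2 (right), in deposited units on a log axis, with all protein-coding genes that have a promoter peak as a box at the right (line, median; box, quartiles; whiskers, 5th to 95th percentile). Cbln1 and Cbln3 sit above the median of 9.10 in replicate 1 and 6.65 in replicate 2, while Cbln2 and Grid2ip sit between the lower whisker and the box in both panels. Grid1 does so in replicate 1 and has no peak in replicate 2, and Cbln4 has no peak in either.

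Cbln1 encodes the main cerebellin of granule cells and lies at chr8:87468405-87472609 on the minus strand. Its highest promoter peak was at the same position in both animals, chr8:87472621-87472860, with its midpoint at -132 bp from the start. That peak had a height of 18.6 in replicate 1 and 11.3 in replicate 2. It stood above 80.5% and 75.3% of the highest peaks of accessible promoters. The next peak upstream, centred at -462 bp in replicate 1 and at -442 bp in replicate 2, was lower, with heights of 9.67 and 5.28. The start itself lay in no called peak in either animal, but it lay inside a stretch of cutting with a false discovery rate no higher than 0.05 in both. The promoter window held 18 footprints in replicate 1 and 16 in replicate 2.

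Of the 6 genes, Cbln1 had the most peaks for its length. Its territory of 24205 bp held 18 peaks in replicate 1 and 19 in replicate 2, of which 13 and 14 were distal. Among the 1092 genes of similar length the median was 1 distal peak in replicate 1 and 0 in replicate 2, and 99.3% and 99.6% of them had fewer distal peaks than Cbln1. Peaks covered 19.3% of the territory in replicate 1 and 17.0% in replicate 2. Of the territory's peaks, 15 of 18 and 16 of 19 overlapped a peak of the other animal. The median height over all peaks of the territory was 1.43 in replicate 1 and 1.08 in replicate 2. Over all peaks of the animal's list it was 0.764 and 0.899. All distal peaks but the highest were at most 2.89 high in replicate 1 and 2.29 in replicate 2, well below the highest promoter peak.

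The exception lay inside the gene. The peak at chr8:87470661-87470860 had the same bounds in both animals, 1848 bp into Cbln1, in the last intron of its protein-coding transcripts. Its height was 10.2 in replicate 1 and 7.31 in replicate 2, above 98.0% and 97.6% of all distal peaks of that animal. It contained 7 footprints in replicate 1 and 5 in replicate 2, and 77 of its 200 bases were footprinted in both. The sequence is shown because it is the highest distal peak of the gene and has bounds that match between the animals. It is read from the mm10 genome on the minus strand, with bases in footprints of both animals in capitals:
Cbln1 intron, chr8:87470661-87470860: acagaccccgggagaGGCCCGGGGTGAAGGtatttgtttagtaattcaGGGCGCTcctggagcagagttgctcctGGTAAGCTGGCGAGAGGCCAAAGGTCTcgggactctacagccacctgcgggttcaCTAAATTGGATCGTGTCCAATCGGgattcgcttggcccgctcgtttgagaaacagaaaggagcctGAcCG

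At bases 92 to 96, counted from the 5' end, the footprinted part holds GCCAA, the reverse complement of TTGGC, the core recognised by nuclear factor I (NFI) proteins, which are abundant in maturing granule cells. A copy of TTGGC nearer the 3' end of the same sequence lay outside the footprints of both animals, and so did an E-box (CANNTG, the motif of basic helix-loop-helix factors). TTGGC is common: on either strand it was present in 48.0% of 108213 windows of 200 bases centred on distal peaks of replicate 1, and CANNTG in 77.0%. A match is therefore only a description of the letters under a footprint.

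The remaining high distal peaks of Cbln1 were a peak at 3548 bp into the gene, in its last exon, with heights of 2.89 and 2.29, and one upstream at -1612 bp with heights of 2.28 in replicate 1 and 1.43 in replicate 2. The upstream peak held 6 footprints in replicate 1 and 3 in replicate 2. The annotation also places 4 long noncoding RNA genes in or across this territory (4930535O05Rik, Gm19872, Gm2694 and Gm27016), and no peak lay within 1 kb of any of their starts. In all, the Cbln1 territory held 53 footprints in replicate 1 and 51 in replicate 2, where the median gene had 13 and 10.

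Cbln3, whose protein leaves the granule cell only in complex with Cbln1, had the highest promoter of the 6 genes. It lies at chr14:55878913-55884392 on the minus strand. Its highest peak covered the start, at chr14:55884221-55884400 in replicate 1 and chr14:55884221-55884420 in replicate 2. The heights were 27.9 in replicate 1 and 17.1 in replicate 2, above 95.4% and 93.8% of accessible promoters. This promoter window, which also takes in the start of the neighbouring gene Khnyn, has a moderate content of CpG dinucleotides. Its ratio of observed to expected CpG was 0.436, in the third of 5 equal classes of genes, and 98.0% of the genes of that class in replicate 1 and 97.5% in replicate 2 had a lower highest peak or none.

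The promoter of Cbln3 overlaps that of a neighbour. Khnyn starts 555 bp away on the opposite strand, so the windows of the 2 genes overlap and share the peak at the Cbln3 start. A second peak, centred at -479 bp from the Cbln3 start in replicate 1 and at -499 bp in replicate 2, covered the Khnyn start and had heights of 15.4 and 9.52. DNase-seq does not assign a shared peak to either gene.

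The RefSeq promoter table (GRCm38.p6) held entries for Cbln3, Cbln4 and Grid2ip. The first 164 bases of the Cbln3 entry are given because they hold the stretch from upstream into the start, together with 2 later stretches of 30 bases that carry the widest footprints. Capitals mark bases in footprints of both animals, on the minus strand:
Cbln3 promoter, chr14:55884343-55884506: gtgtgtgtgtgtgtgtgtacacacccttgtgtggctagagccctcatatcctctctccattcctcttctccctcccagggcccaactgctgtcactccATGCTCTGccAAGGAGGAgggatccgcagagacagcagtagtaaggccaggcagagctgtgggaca
Cbln3 first stretch, chr14:55884296-55884325: gGGAGTGCCCGGGCTAGGTGCCAGACTCAc
Cbln3 second stretch, chr14:55884234-55884263: gCCTTGAAGCAGAGGGGGGAGAGCCAAGGg

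Of the 300 bases of the whole entry, 126 were footprinted in replicate 1, 84 in replicate 2 and 72 in both. The run GCCAA, which is TTGGC on the other strand, occurs at 2 places in the entry. The copy in the second stretch was footprinted in both animals, while the centre of the copy near the start was footprinted in replicate 1 alone. The entry has only 2 CpG dinucleotides, against 15 in the entry of Cbln4. TTGGC was present in 46.7% of 32851 promoter entries.

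The most accessible distal peak of all 6 genes lay within Cbln3 as well. It covered chr14:55882421-55882700 in replicate 1 and chr14:55882401-55882580 in replicate 2, centred 1831 and 1901 bp into the gene, in the annotated 3' untranslated region. Its height was 15.7 in replicate 1 and 11.4 in replicate 2, above 99.3% and 99.4% of distal peaks. It held 7 footprints in replicate 1 and 1 in replicate 2 inside the called bounds. The called peak of replicate 2 ended short of the stretches below, although footprints of both animals were listed there. The footprinted part is shown as 2 stretches of 30 bases on the minus strand:
Cbln3 distal first stretch, chr14:55882620-55882649: cgctatTTGGTGACAGGTGGCGCAGgtaag
Cbln3 distal second stretch, chr14:55882585-55882614: caggctccCACAGGGGCCCAGAtggaccag

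The first stretch holds the E-box CAGGTG under a footprint of both animals. The second holds CAGATG, the form of CANNTG bound by NeuroD and Atoh1 factors of granule cells, of which the centre was footprinted in both animals. CAGATG, which is also counted as CANNTG, was present in 25.1% of distal windows.

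Cbln3 had 11 territory peaks in replicate 1 and 9 in replicate 2, of which 6 and 4 were distal. In its length class 93.6% of genes in replicate 1 and 92.5% in replicate 2 had fewer distal peaks. All 9 peaks of replicate 2 overlapped a peak of replicate 1. A peak at 10401 bp from the start, in the territory's downstream flank, had heights of 12.3 and 6.80, and it lay at the end of Nynrin and within 1 kb of the start of the noncoding Gm26751. A further distal peak 4581 bp into the gene had heights of 4.10 in replicate 1 and 2.33 in replicate 2. The territory held 44 footprints in replicate 1 and 38 in replicate 2.

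**Figure D2:**
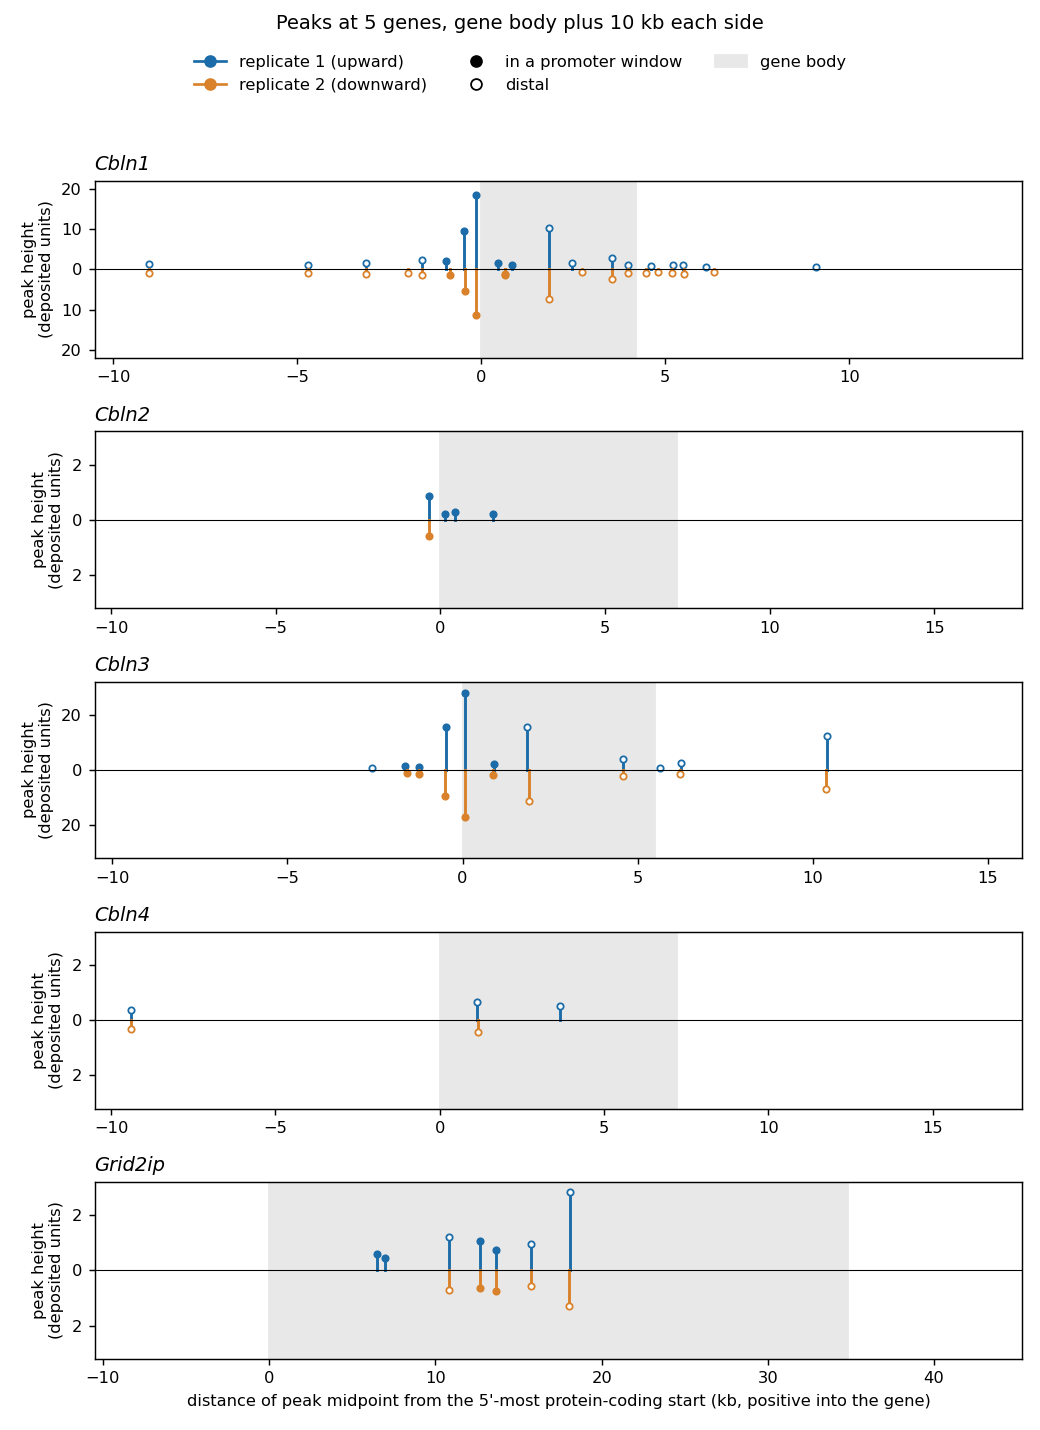
Peaks in the territories of the 4 cerebellin genes and Grid2ip by distance of the peak midpoint from the first protein-coding start in kb, with height in deposited units upward for replicate 1 and downward for replicate 2 (filled, in a promoter window; open, distal; grey, gene body). The height axis differs between panels. Cbln1 and Cbln3 have a dense row of peaks with an intragenic one of 10.2 and 15.7 in replicate 1, while no peak of Cbln2 or Cbln4 exceeds 0.873.

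Cbln2 and Cbln4, the cerebellins of other brain regions, had no peak higher than 0.873 in either animal. Cbln2, on chromosome 18, had 4 peaks in replicate 1 and 1 in replicate 2, all in its promoter windows, and no distal peak in either animal. Its highest promoter peak, centred at -339 bp in replicate 1 and at -349 bp in replicate 2, had heights of 0.873 and 0.593. Those heights exceeded 12.8% and 7.88% of accessible promoters. The gene has 4 annotated protein-coding starts, and no peak of replicate 2 lay in the windows of the third and the fourth. The territory held 1 footprint in replicate 1 and 0 in replicate 2. Its CpG ratio of 0.682 put it in the fourth class, where 94.3% of genes carried such a peak in both mice and the median height was 11.6 in replicate 1 and 7.93 in replicate 2.

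Cbln4, at chr2:172036233-172043466 on the minus strand, was the only member with no promoter peak in either animal. In replicate 1 12 bp of its promoter window passed a false discovery rate of 0.05, the lowest value being 0.0497, and in replicate 2 no base did. Of the genes in its CpG class 8.75% had no promoter peak in either animal. The territory held 3 peaks in replicate 1 and 2 in replicate 2, all distal. In its length class 74.4% of genes in replicate 1 and 71.1% in replicate 2 had fewer distal peaks, so the number of distal peaks was not low for that class. The highest peak, in the first exon at 1135 bp in replicate 1 and 1155 bp in replicate 2, had heights of 0.645 and 0.435. These were above 50.02% and 25.8% of distal peaks. With a promoter window of 2000 bp on each side this exonic peak counted as a promoter peak in both animals. The other shared peak, at -9405 bp, had heights of 0.369 in replicate 1 and 0.336 in replicate 2. The territory held 4 footprints in replicate 1 and 2 in replicate 2.

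The promoter of Cbln4 is printed as the closed member of the family. It has no capitals because no base of it was footprinted in either animal:
Cbln4 promoter, chr2:172043417-172043716: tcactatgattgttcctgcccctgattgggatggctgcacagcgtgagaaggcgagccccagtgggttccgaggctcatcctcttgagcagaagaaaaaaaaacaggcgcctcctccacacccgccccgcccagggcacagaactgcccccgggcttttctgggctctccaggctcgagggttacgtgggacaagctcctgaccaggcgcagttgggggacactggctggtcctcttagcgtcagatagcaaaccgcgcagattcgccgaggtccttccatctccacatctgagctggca

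This sequence, on the minus strand, holds motif matches as well. It has CATCTG, which is CAGATG on the other strand, near its 3' end, and CCGCCC, the core of SP and KLF factors (GGGCGG on the other strand), at 2 places. CAGATG was present in 17.2% of promoter entries and GGGCGG in 35.7%.

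On the receptor side both genes had low promoters, and they differed in how far the animals matched. Grid1 is a long gene of 763272 bp at chr14:34820108-35583379 on the plus strand. Its promoter window held 4 peaks in replicate 1, with heights up to 0.694, and no peak in replicate 2. In replicate 1 the window held 13 footprints and 11 stretches with a false discovery rate no higher than 0.05, covering 1751 bp with a lowest value of 9.0e-06. In replicate 2 the window held 0 footprints and 0 such stretches.

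Promoter peaks found in replicate 1 alone were seen at 893 genes, against 136 found in replicate 2 alone. At those 893 genes the median height was 0.401 and the median number of footprints in the window was 1. The Grid1 height exceeded 82.8% of them, and 99.4% had fewer footprints in the window than Grid1. The height of 0.694 nonetheless exceeded only 10.3% of accessible promoters in replicate 1. Grid1 has a CpG-rich promoter, with a ratio of 0.818 in the highest class, where 96.3% of genes carried such a peak in both mice. In that class 5.25% of genes had a lower highest peak than Grid1 or none in replicate 1.

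Grid1 had 25 distal peaks in replicate 1 and 24 in replicate 2. The 1092 genes of its length class, 1 of 20 groups of equal size, had a median of 16 and 14, and 68.7% and 71.6% of them had fewer. Genes within the class differ in length, and the part of length in this count was not tested. Of all Grid1 territory peaks, 62.1% in replicate 1 and 75.0% in replicate 2 overlapped a peak of the other animal. The shares over all peaks were 65.8% and 80.4%. All of the 18 overlapping territory peaks of replicate 1 were distal, where replicate 2 had no promoter peak to overlap. The highest lay 430463 bp into the gene in an intron, at chr14:35250501-35250640 in replicate 1 and chr14:35250501-35250680 in replicate 2. Its heights were 5.96 and 3.999, above 94.4% and 92.2% of distal peaks, with 4 footprints in each animal. A peak at -9177 bp had heights of 3.83 in replicate 1 and 2.22 in replicate 2, and one 3233 bp into the gene had 1.66 and 1.12. The other shared distal peaks of replicate 1 were at most 1.11 high.

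The intronic sequence is shown because it carries the clearest footprints of the receptor side. Capitals mark bases in footprints of both animals, on the plus strand, 76 of the 200 bases:
Grid1 intron, chr14:35250471-35250670: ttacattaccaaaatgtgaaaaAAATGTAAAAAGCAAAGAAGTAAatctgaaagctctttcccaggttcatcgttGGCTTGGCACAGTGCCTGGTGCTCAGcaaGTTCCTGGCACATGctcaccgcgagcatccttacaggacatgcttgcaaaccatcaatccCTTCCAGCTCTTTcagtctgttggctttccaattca

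TTGGC occurs here as a direct repeat, TTGGCTTGGC, at bases 74 to 83 counted from the 5' end, and the centres of both copies were footprinted in both animals. A further copy at bases 185 to 189 was footprinted in neither. The E-box CACATG at bases 113 to 118 was footprinted in both.

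**Figure D3:**
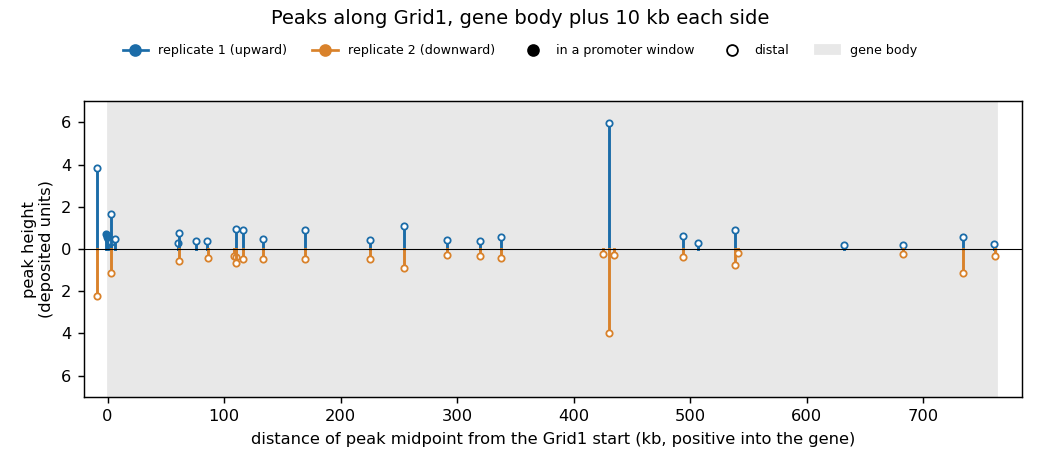
Peaks along Grid1 and its flanks by distance of the peak midpoint from the start in kb, with height in deposited units upward for replicate 1 and downward for replicate 2 (filled, in the promoter window; open, distal; grey, gene body). The peak 430463 bp into the gene stands out in both animals at 5.96 and 3.999, and filled points at the start are present in replicate 1 alone.

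Grid2ip, at chr5:143357338-143392152 on the plus strand, has 3 annotated protein-coding starts, and they were not equally open. The first start had no peak in its window in either animal and no base with a false discovery rate no higher than 0.05. The window of the second start held a highest peak of 0.602 in replicate 1 and none in replicate 2. The window of the third held a highest peak of 1.07 in replicate 1 and 0.751 in replicate 2, above 15.1% and 10.4% of accessible promoters. The peak nearest the third start lay at chr5:143369941-143370120 in replicate 1 and chr5:143369946-143370082 in replicate 2, with heights of 1.07 and 0.652. With the smaller peak list the gene kept a promoter peak in 1 of the 2 animals.

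The promoter entry of the third start is given as the only Grid2ip start with a footprint in both animals. It is on the plus strand, and the 8 bases in capitals were footprinted in both, out of 30 in replicate 1:
Grid2ip start 3, chr5:143369824-143370123: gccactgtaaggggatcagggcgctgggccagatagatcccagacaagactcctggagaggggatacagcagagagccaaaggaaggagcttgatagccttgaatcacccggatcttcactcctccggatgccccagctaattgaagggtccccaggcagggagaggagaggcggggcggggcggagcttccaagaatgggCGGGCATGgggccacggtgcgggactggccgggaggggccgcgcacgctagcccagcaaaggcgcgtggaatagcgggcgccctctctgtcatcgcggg

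GGGCGG occurs 3 times in this entry. The copy at bases 199 to 204 was footprinted at its centre in both animals, and the copies at bases 175 to 180 and 180 to 185 in replicate 1 alone. Grid2ip had 7 territory peaks in replicate 1 and 5 in replicate 2, of which 3 and 3 were distal. The highest distal peak, 18073 bp into the gene in an intron, had heights of 2.86 in replicate 1 and 1.29 in replicate 2 and held 4 footprints in each animal. The other shared distal peaks lay 10793 bp into the gene, with heights of 1.21 in replicate 1 and 0.701 in replicate 2, and 15753 bp into it, with 0.959 and 0.553. The territory held 19 footprints in replicate 1 and 9 in replicate 2, all of them inside peaks. Gm20635, an antisense gene that overlaps the end of Grid2ip, had peaks of 15.4 and 10.3 at its own start, outside the Grid2ip territory.

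Set against each other per length, the ligand genes carried more peaks and footprints. The 4 cerebellin territories held 36 peaks in replicate 1 and 31 in replicate 2 over 104.093 kb, which is 3.46 and 2.98 peaks per 10 kb. The 2 receptor-side territories held 36 and 29 peaks over 838.087 kb, which is 0.430 and 0.346 peaks per 10 kb. The median over all genes was 0.830 in replicate 1 and 0.712 in replicate 2, not matched for length. Within its length class, whose genes still differ in length, 68.7% in replicate 1 and 71.6% in replicate 2 had fewer distal peaks than Grid1. For Grid2ip the shares were 56.6% and 62.5%, for Cbln1 99.3% and 99.6%, and for Cbln3 93.6% and 92.5%. For Cbln4 they were 74.4% and 71.1%, and for Cbln2 0% and 0%. For footprints the densities were 9.80 and 8.74 per 10 kb at the ligand genes against 0.871 and 0.418 at the receptor-side genes. The difference in peak density between ligand and receptor-side genes averaged 2.83 ± 0.281 peaks per 10 kb (SD, n = 2 animals), and over gene bodies alone it was 5.01 ± 1.13.

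This contrast followed single genes rather than sides. Within the ligands, Cbln1 had 7.44 peaks per 10 kb in replicate 1 and 7.85 in replicate 2, whereas Cbln2 had 1.47 and 0.368 and Cbln4 had 1.10 and 0.734. Cbln3 had 4.32 and 3.53. On the receptor side, Grid2ip with 1.28 and 0.912 lay between Cbln4 and Cbln2 in replicate 1 and above both in replicate 2, and Grid1 with 0.370 and 0.306 had the lowest density in replicate 1 and in replicate 2. Grid1 makes up most of the receptor-side length, so the sum for that side is mainly its own.

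**Figure D4:**
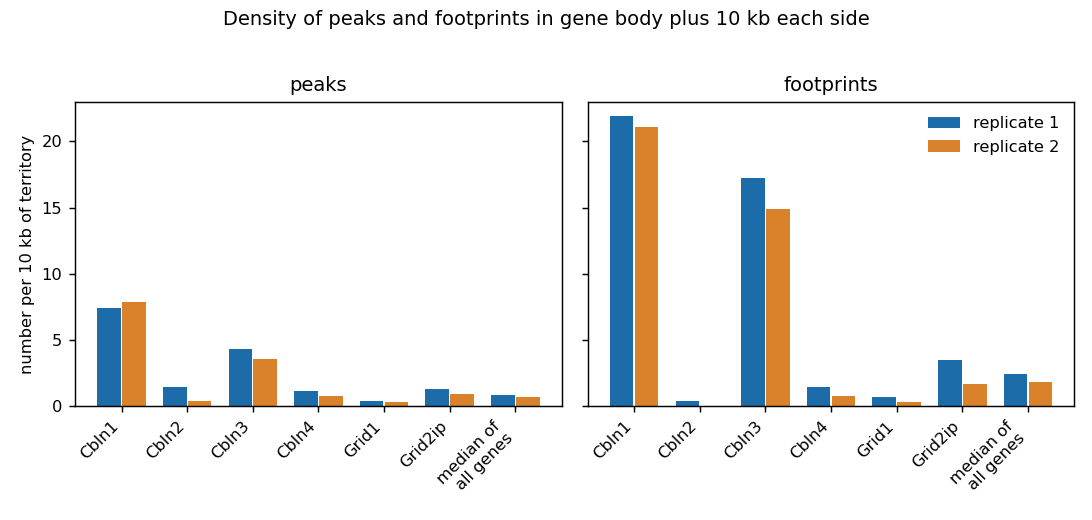
Peaks (left) and footprints (right) per 10 kb of territory for each of the 6 genes and, at the right of each panel, the median of all protein-coding genes, with replicate 1 in blue and replicate 2 in orange. Cbln1 has 21.9 and 21.1 footprints per 10 kb and Cbln3 17.3 and 14.9, while the 4 other genes lie at or under 3.47 in either animal.

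Over all 6 territories there were 72 peaks in replicate 1 and 60 in replicate 2, of which 50 and 47 were distal. Of these, 69.4% and 85.0% overlapped a peak of the other animal, where the shares over all peaks were 65.8% and 80.4%. The order of the highest promoter peaks was the same in both animals for the genes that had one, with Cbln3 above Cbln1, then Grid2ip and Cbln2. On the scale of ranks among accessible promoters, Cbln3 (95.4% and 93.8% below) and Cbln1 (80.5% and 75.3%) did not overlap between the animals. Grid2ip (15.1% and 10.4%) ranked above Cbln2 (12.8% and 7.88%) in each animal, by less than either gene differed between the animals, and Grid1 stood at 10.3% in replicate 1. The territories held 175 footprints in replicate 1 and 126 in replicate 2. Of 16 motifs searched on both strands, 64 matches lay in the members' promoter peaks in replicate 1 and 44 in replicate 2, and the centre of 12 and 11 of them was in a footprint. Some motifs overlap, and no such count was made for other promoter peaks or for bases outside motifs.

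A list of 15 genes, called partner genes here, was chosen with earlier results of these data known. Not all of their products bind cerebellins or delta receptors. Of the 15, 15 had a promoter peak in replicate 1 and 14 in replicate 2, with 14 in both. The shares over all protein-coding genes were 67.0%, 63.5% and 62.9%, but with a list chosen in this way the comparison is no test. The exception was C1ql2, a C1q-like secreted protein, with 0.314 in replicate 1 and no peak in replicate 2. The highest were Ptpn4, a tyrosine phosphatase, with 26.5 and 17.3, Gopc, a Golgi scaffold, with 22.1 and 13.0, and Becn1, an autophagy protein, with 21.8 and 12.5. Nrxn2, which encodes a presynaptic neurexin partner of cerebellins, had 20.3 in replicate 1 and 12.4 in replicate 2. The median of the list was 7.44 in replicate 1 and 5.66 in replicate 2, where the median of all accessible promoters was 9.10 and 6.65.

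By height of the highest promoter peak and number of distal peaks in both animals, the genes nearest to each member were sought among 13733 genes with a promoter peak in both. Among the nearest to Cbln1 were Socs7 and Bcl2l1, to Cbln2 Syt10 and Ctxn2, to Cbln3 Wasl, and to Grid2ip Fam131c and 2810459M11Rik. Wasl had promoter peaks of 28.4 and 16.9 with 6 and 4 distal peaks, which are nearly the values of Cbln3. Socs7 had 17.8 and 11.4 with 13 and 13 distal peaks, close to Cbln1.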

How the data were processed

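Each animal's library came with 2 peak lists, a footprint list and a table of false discovery rates along the genome, on mm10. Peak height is a signal in the deposited peak files, and false discovery rates are p-value-like values in the deposited tables by the authors. The sources used here do not give the aligner or the peak caller. The larger peak list of each animal was used, with GENCODE M21 genes. Peaks and footprints overlapping a territory or promoter window by at least 1 bp were counted in Python 3.11.15 with numpy 2.4.6. The counting was checked against bedtools 2.31.1 on simulated intervals. Length classes were 20 groups of equal size. Motifs were searched on both strands: TTGGC (NFI), CANNTG (E-box), CAGATG (NeuroD, also an E-box), CAGCAGG (ZIC), NAGGTCA (ROR), TGACG (CREB), GGGCGG (SP and KLF), TGANTCA (AP-1), CCGGAAG (ETS), and by name the palindromes of NFI and CREB, which hold their cores, MEF2, EBF, the CTCF core, REST and NRF1. Named were all members, the partner genes with the 3 highest promoter peaks or none, protein-coding neighbours, the 2 nearest genes by 4 scaled values, and the highest promoter peak and 3 highest shared distal peaks of each member. The members and lists were chosen with earlier results of these data known. Alternatives covered other windows, flanks, peak lists, height thresholds and overlaps, and each animal alone. Read depth is unknown, so no counting interval is given. Some genes that this rule names are not reported here.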

Additional observations from a re-analysis of the deposited data

How the results depend on the processing

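Promoter peaks in both animals were found at 4 members under the 1000 bp window, and at 2 when peaks had to exceed the median height of their list. At that height threshold no share over all genes was counted. The windows of 500 and 2000 bp, the smaller list, false discovery rates and midpoints gave 3 to 5 members, and each animal alone 4 to 5. The mean of 66 territory peaks over the animals became 43.5 in gene bodies alone, and each animal alone gave 60 to 72. The mean of 48.5 distal peaks became 31.5 with the smaller list. The mean of 150.5 footprints became 90.5 in gene bodies alone. The density difference of ligand and receptor-side genes, 2.83 peaks per 10 kb, became 5.01 in gene bodies alone and 2.28 with the smaller list, against 2.63 to 3.03 in each animal alone. No direction was reversed. Gene bodies and smaller lists hold fewer peaks by construction. Of 96 values for single genes, 70 stayed within 1.5 times the reported value, 18 were lower and 8 higher. Motif matches with a footprinted centre averaged 11.5, and those with any footprinted base 14.5. Sharing between animals was 77.2% on average and 71.8% at an overlap of 50% of both peaks. No paired analysis was possible because the series has 1 group. Depth, the mapping of CAST alleles to the reference genome and cell makeup limit these values, and their part was not tested.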
